A study of Homo sapiens with 6 samples.

Results

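Prostaglandin E2 synthesis and reception were followed through 10 genes, from the phospholipase that frees arachidonic acid to the receptors at the cell surface, out of 18338 genes with an expression value. The genes were selected on earlier results of these same arrays, in which PLA2G4A and PTGER4 stood among the largest rises, and were completed to the pathway by function. All 28 probe sets that the platform annotation assigns to exactly 1 of these genes were taken, and every gene had at least 1. Because the contrast between the lines was known when the genes were picked, their differences are a description and carry no p-value.

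The arrays compared a pair of stable Tet-On lines made from HEK293, an established human embryonic kidney line, on Affymetrix HG-U133 Plus 2.0 arrays, which read each gene through 1 or more probe sets. One line carries a control vector (3 arrays) and the other a vector from which doxycycline induces myocilin (3 arrays). Both lines were grown with hygromycin B and G418, and the treatment text shared by all samples names 0.2 or 1 µg/ml doxycycline for 48 h, with no dose tied to an array; only the myocilin samples have a description that mentions doxycycline. Each vector is represented by a single line, so the vector and any other difference between the lines cannot be told apart, and separate cultures are not stated, so the spread between arrays may be technical.

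Values are the deposited log2 values, centred by the authors on an unstated reference level for each probe set, which lets arrays be compared with each other but hides how bright a probe set was. A value of 0 is that reference level and not an absent transcript, and levels of different genes cannot be ranked. The log base was inferred from the values; ratios are therefore given at face value. Each array had a median of 0 and a standard deviation of 0.17 to 0.20 over 41751 probe sets. MYOC, the induced gene, had control values of -6.71, -8.32 and -8.29 and myocilin values of 0.21, 0.20 and 0.24, in the direction of the labels. RNA came from whole cultures, so a higher level per cell and a larger share of cells with the transcript cannot be told apart. Defining markers of embryonic kidney could not be scored as present or absent on centred values. Of 7 such markers 1 was higher in the myocilin line (WT1, by 0.28, a call kept in 4 of 11 alternatives), of 6 fibroblast markers 1 was higher (COL1A1, by 0.25, kept in 7 of 11) and of 5 leukocyte markers 0 passed (1 at an unadjusted limma p under 0.05). Array means of the leukocyte list ran from -0.05 to 0.04 in the control line and from 0.03 to 0.16 in the myocilin line, those of the fibroblast list from -0.08 to 0.00013 and from -0.04 to 0.03, and those of the kidney list from -0.04 to 0.04 and from 0.04 to 0.09. The part of other cells in the results was not tested.

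Prostaglandin E2 is a short-lived lipid signal made on demand. Cytosolic phospholipase A2 (PLA2G4A) releases arachidonic acid from membranes after calcium and ERK-family kinases activate it, the cyclooxygenases PTGS1 and PTGS2 convert it to prostaglandin H2, and the terminal synthases PTGES, PTGES2 and PTGES3 turn that into prostaglandin E2. The dehydrogenase HPGD inactivates the product, and the G protein-coupled receptors EP2, EP3 and EP4 (PTGER2, PTGER3, PTGER4) report it to the cell: EP2 and EP4 raise cyclic AMP, while EP3 mostly lowers it. In the kidney the pathway is known for its part in salt and water handling and renal blood flow.

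The promoter windows of 4 of these genes are shown first, because 2 of the genes rose together, 1 fell, and 1, the cyclooxygenase gene next to PLA2G4A on chromosome 1, did neither. Each holds 250 bases before and 50 after the RefSeq gene start (GRCh38.p14), read 5′ to 3′ along the gene's strand; of the 10 genes, 9 had an entry. Capitals mark matches, on either strand, to any of 11 motifs searched: the cyclic AMP response element TGACGTCA and its shorter core TGACG, AP-1 (TGANTCA), NF-kB and the SRF CArG box (by their names), the ATF4-C/EBP element TGATGNAA, the TATA box spelled TATAAA, the GC box spelled GGGCGG, the CCAAT box, the E-box spelled CACGTG, and the SOX factor motif spelled ACAATGG. The full cyclic AMP element contains the core.
PLA2G4A, chr1:186828699-186828998, plus strand: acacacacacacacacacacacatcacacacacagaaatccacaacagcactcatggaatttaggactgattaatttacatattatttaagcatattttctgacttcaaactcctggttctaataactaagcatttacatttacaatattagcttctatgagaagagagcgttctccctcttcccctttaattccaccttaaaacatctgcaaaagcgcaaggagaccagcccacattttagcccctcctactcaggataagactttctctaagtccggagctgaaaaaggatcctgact
PTGS2, chr1:186680374-186680673, minus strand: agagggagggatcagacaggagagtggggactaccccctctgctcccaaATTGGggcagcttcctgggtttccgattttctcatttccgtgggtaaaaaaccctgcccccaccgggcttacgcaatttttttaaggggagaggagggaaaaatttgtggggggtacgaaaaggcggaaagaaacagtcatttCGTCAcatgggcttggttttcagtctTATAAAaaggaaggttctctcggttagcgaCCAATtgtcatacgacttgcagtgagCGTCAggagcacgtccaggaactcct
HPGD, the first of 2 listed starts, chr4:174522439-174522738, minus strand: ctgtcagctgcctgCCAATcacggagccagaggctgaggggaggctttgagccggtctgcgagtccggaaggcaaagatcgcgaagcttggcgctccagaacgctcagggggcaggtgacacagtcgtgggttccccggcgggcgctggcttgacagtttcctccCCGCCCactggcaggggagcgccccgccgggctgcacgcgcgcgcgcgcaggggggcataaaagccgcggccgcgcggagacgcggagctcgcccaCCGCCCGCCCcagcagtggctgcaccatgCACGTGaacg
PTGER4, chr5:40679665-40679964, plus strand: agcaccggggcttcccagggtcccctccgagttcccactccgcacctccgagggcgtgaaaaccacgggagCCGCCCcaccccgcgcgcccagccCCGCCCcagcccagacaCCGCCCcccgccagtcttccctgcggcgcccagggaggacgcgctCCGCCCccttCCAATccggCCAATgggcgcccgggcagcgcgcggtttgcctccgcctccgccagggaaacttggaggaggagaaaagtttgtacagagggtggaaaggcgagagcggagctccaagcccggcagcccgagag

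The windows of the 2 genes that rose differed in base content and in matches. PLA2G4A held 0 matches to the 11 motifs, began with an alternating run of a and c, and had a GC content of 39.7%, with 11.2% of all 35116 promoter windows lower. PTGER4 held 4 GC boxes and 2 CCAAT boxes and had a GC content of 72.0%, with 84.2% of windows lower; a GC box occurs in 45% of all windows and CCAAT in 34.6%. PTGS2, the inducible cyclooxygenase, had cores of the cyclic AMP element at positions -58 and 25 from the gene start, counted to the first base of the match along the gene's strand, with -1 just before the start and 1 its first base, and TATAAA at -32. Such a core occurs in 24.6% of windows and TATAAA in 11.5%. Among the windows not printed, the core also occurred in that of the second HPGD start at -77, PTGER2 at -137 and PTGES3 at -21. The printed HPGD window held CCAAT, 3 GC boxes and an E-box, which 7.26% of windows hold. A match of letters is not a binding site, and a window without a match says only that these letters are not in it.

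Of the 10 genes, PLA2G4A and PTGER4 rose in the myocilin line, HPGD fell, and 7 did not pass the threshold, which was a limma adjusted p under 0.05 over all genes. Among all genes measured, 8.28% passed as higher and 7.35% as lower, and the groups did not overlap upward in 18.9% and downward in 16% of genes. The same 3 of the 10 genes had groups that did not overlap. The median difference, myocilin minus control, was 0.05 over the 10 genes and 0.02 over all genes, and 2 of the 10 reached an absolute log2 difference of 1, against 28 genes upward and 31 downward in the whole table. Since the choice of genes rested on this contrast, nothing is read from these counts. The whole-table counts of 1519 higher and 1347 lower genes became 833 to 1125 and 780 to 1095 with 1 array left out. They were 833 and 780 without myocilin array 1, 1007 and 882 without control array 2, and 964 higher without myocilin array 2. Each such fit also has fewer arrays, and the part of this in the drop was not tested. The same 3 genes of the 10 passed without each array in turn.

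**Figure D1:**
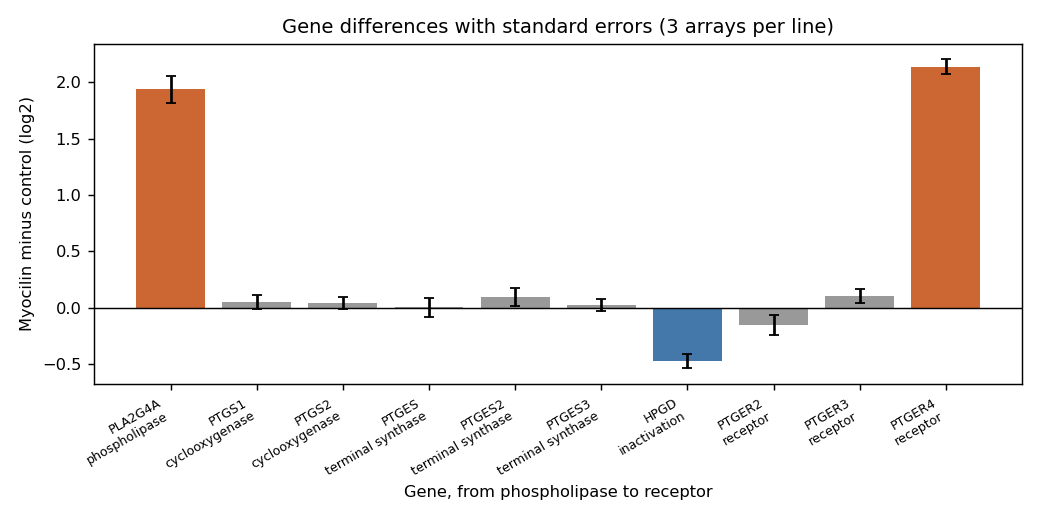
Log2 difference (myocilin minus control, vertical axis) of the 10 genes in pathway order; bars are limma estimates from 3 arrays per line, error bars are standard errors, orange is higher, blue lower and grey not past the threshold. PLA2G4A at 1.94 and PTGER4 at 2.14 stand at the ends of the order, HPGD lies at -0.47 and the others lie between -0.15 and 0.10.

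PLA2G4A, the entry step, has 1 probe set (210145_at). Its values were -1.45, -1.15 and -1.17 in the control line, then 0.77, 0.85 and 0.41 in the myocilin line. Every myocilin array lay above every control array, with a gap of 1.57 between the nearest arrays, and myocilin array 3 was the lowest of its line. The control mean was -1.26 ± 0.16 and the myocilin mean 0.68 ± 0.23 (SD, n = 3 per line). That is a difference of 1.94 (SE 0.12), which taken at face value is 3.82-fold. It was the 7th largest rise among all genes. With each array left out in turn it ran from 1.84 to 2.07.

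Neither cyclooxygenase gene passed the threshold. PTGS1, the constitutive enzyme, read 0.04, -0.06 and -0.07 in the control line and 0.01, -0.02 and 0.08 in the myocilin line as the mean of its 4 probe sets. The lines overlapped, and the difference was 0.05 with a 95% interval of -0.08 to 0.19. In 1 of the 4 probe sets, 205127_at, the lines did not overlap, at -0.12, -0.25 and -0.15 against 0, -0.06 and 0.02, but this probe set did not pass either. PTGS2, the enzyme induced by growth factors and inflammation, read -0.05, -0.03 and -0.08 against -0.04, 0 and -0.01. Its difference was 0.04 with a 95% interval of -0.08 to 0.16, which at face value spans ratios of 0.945 to 1.12. Its 2 probe sets differed by -0.02 and 0.10. Without a brightness scale, these values do not show whether either cyclooxygenase transcript was above background in the cells.

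The 3 terminal synthase genes did not pass. PTGES, the inducible microsomal enzyme that works with PTGS2, read -0.03, -0.01 and 0.16 in the control line and -0.07, 0.01 and 0.18 in the myocilin line. Its difference was 0.0036 with a standard error of 0.08, and its sign changed when single arrays were left out (-0.07 to 0.06). PTGES2, a second membrane-bound synthase, read 0.12, -0.13 and -0.04 against 0.05, 0 and 0.19, a difference of 0.10 with a standard error of 0.08. PTGES3, also known as the HSP90 co-chaperone p23, read 0.03, 0.03 and 0.03 against 0.07, 0.09 and 0, a difference of 0.02 with a standard error of 0.05. In all 3 genes the lines overlapped.

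HPGD, the enzyme that starts the breakdown of prostaglandin E2, was lower in the myocilin line. Averaged over its 4 probe sets it stood at 0.18, 0.19 and 0.33 in the control line and at -0.28, -0.18 and -0.25 in the myocilin line. Every myocilin array lay below every control array, and the nearest arrays were 0.36 apart. The control mean was 0.24 ± 0.08 and the myocilin mean -0.24 ± 0.05 (SD, n = 3 per line). The difference of -0.47 (SE 0.06) puts the control line 1.39-fold higher if taken at face value. It was the 281st largest fall of 18338 genes. All 4 probe sets separated the lines in the same direction. The difference was -0.63 for 203914_x_at, -0.55 for 211548_s_at, -0.42 for 203913_s_at and -0.29 for 211549_s_at, and the last did not pass the threshold over all probe sets. The weakest separation was that of 211549_s_at, with 0.09, 0.01 and 0.36 against -0.28, -0.09 and -0.05. The names of all 4 end in _s_at or _x_at, the suffixes for probe sets that can match more than 1 transcript or gene, so no HPGD value is left when these are removed. The difference of 203913_s_at lost its call without control array 3, myocilin array 1 or myocilin array 3.

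Over the 28 probe sets, 4 passed as higher and 3 as lower, where 5.46% and 5.56% of all 41751 probe sets did. The 4 were the only probe set of PLA2G4A, both of PTGER4 and 1 of the 10 of PTGER3; the 3 were from the 4 of HPGD. The lines did not overlap in 9 of the 28, 5 with myocilin higher and 4 with myocilin lower, beside 15.5% and 14.8% of all probe sets, and nothing is read from these counts either. The totals over all probe sets, 2280 higher and 2323 lower, were 1092 and 1189 without myocilin array 1, and the higher total was at most 1514 with any array left out.

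**Figure D2:**
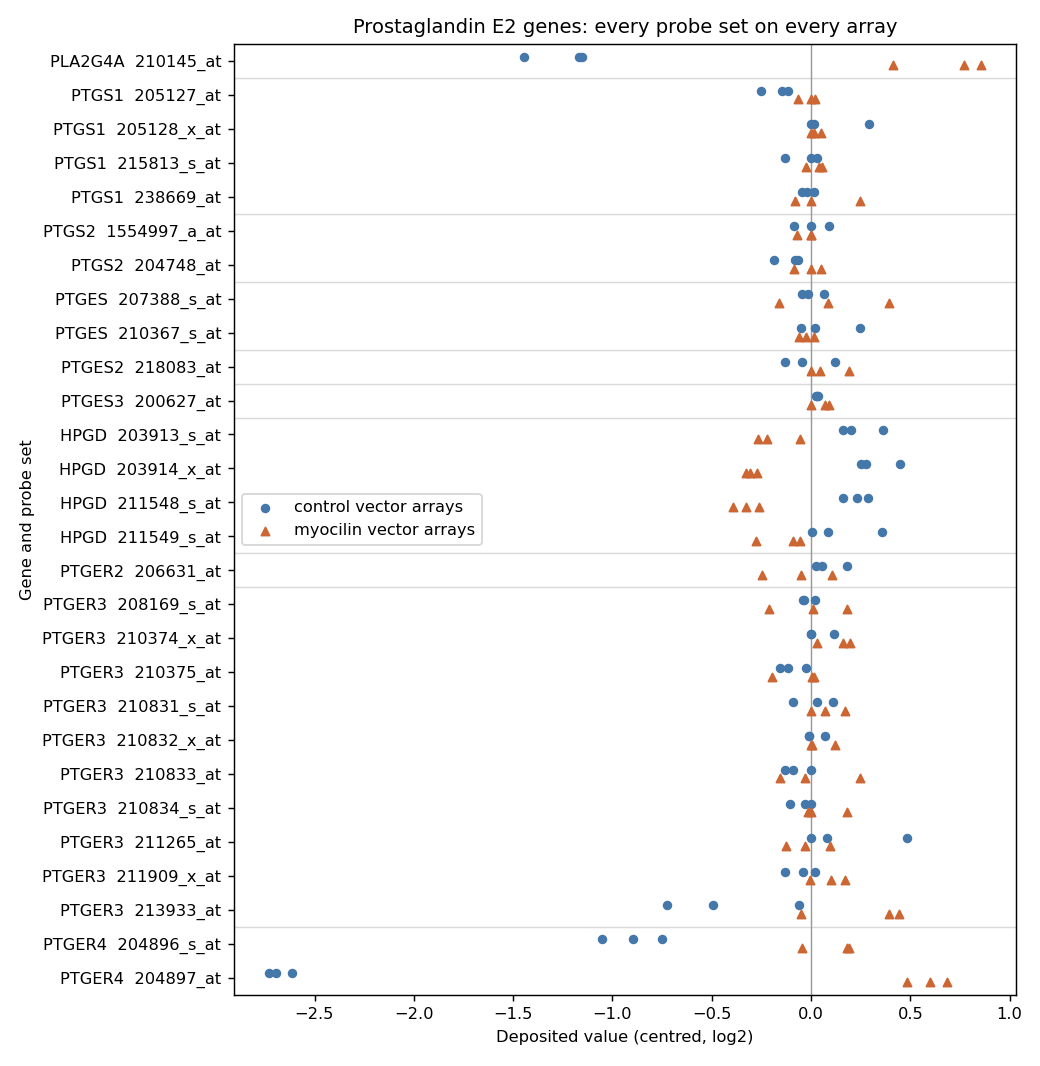
Deposited centred log2 value (horizontal axis) of each of the 28 probe sets on each array; circles are the 3 control arrays and triangles the 3 myocilin arrays, with genes in pathway order. Control circles of 204897_at of PTGER4 lie at -2.73 to -2.61, the 4 HPGD rows separate in the opposite direction, and most other rows overlap around 0.

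The receptors did not move as a family: PTGER4 rose, and PTGER2 and PTGER3 did not pass. PTGER4 encodes EP4, a receptor with a long cytoplasmic tail that couples to cyclic AMP production and to PI3K signalling. As the mean of its probe sets it read -1.72, -1.81 and -1.83 in the control line and 0.28, 0.43 and 0.34 in the myocilin line. The lines did not overlap, and arrays within a line differed little. The control mean was -1.79 ± 0.06 and the myocilin mean 0.35 ± 0.08 (SD, n = 3 per line). The difference of 2.14 (SE 0.06), 4.40-fold if taken at face value, was the 5th largest rise of all genes.

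Both PTGER4 probe sets rose, but by unequal amounts. For 204897_at the control values were -2.70, -2.73 and -2.61 and the myocilin values 0.60, 0.69 and 0.48, a difference of 3.27 (SE 0.08) or 9.63-fold. For 204896_s_at they read -0.75, -0.90 and -1.05 against -0.04, 0.18 and 0.19, a difference of 1.01 (SE 0.10) or 2.01-fold. The probe sets were 2.26 apart. Among 9841 genes with more than 1 probe set the median range was 0.18, and 3 genes had a range at least as wide as that of PTGER4: CHD2 at 3.89, NEFM at 2.48 and PTGER4 itself. These 3 were named after their values were seen. The size of the PTGER4 rise therefore depends on the probe set, from 1.01 to 3.27. Quantile normalisation lowered the difference between the lines, taken on the mean of both probe sets, to 1.90.

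PTGER2, which encodes EP2, the other receptor that raises cyclic AMP, has 1 probe set. It read 0.03, 0.06 and 0.18 in the control line and -0.25, 0.10 and -0.05 in the myocilin line. Myocilin array 2 lay within the control range, and the difference was -0.15 with a 95% interval of -0.35 to 0.05. EP2 and EP4 share their ligand and both raise cyclic AMP. Their genes differed in value here: PTGER4 moved by 2.14 with a standard error of 0.06, PTGER2 by -0.15 with a standard error of 0.09. The PTGER2 difference was -0.06 without myocilin array 1 and -0.24 without myocilin array 2, while that of PTGER4 ran from 2.10 to 2.17 with each array left out. PTGER3 encodes EP3, known for splice variants with different cytoplasmic tails, and is read by 10 probe sets. Their mean was 0.02, -0.05 and -0.10 against 0, 0.04 and 0.13, with overlap and a difference of 0.10 (standard error 0.06). Its 213933_at rose by 0.69 with a standard error of 0.17, reading -0.49, -0.06 and -0.73 against -0.05, 0.44 and 0.39, so that control array 2 and myocilin array 1 nearly met. The other 9 probe sets differed by -0.21 to 0.14. The call of 213933_at was lost without control array 1, control array 3, myocilin array 2 or myocilin array 3, with differences of 0.54 to 0.87 over the alternatives run on probe sets.

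The genes whose pattern over the 6 arrays was nearest to PLA2G4A and PTGER4 were found by the root mean square difference after subtracting each gene's control mean. PXDN, a peroxidase of basement membranes, was nearest to both, at 0.23 from PLA2G4A and 0.11 from PTGER4. The pair themselves were 0.23 apart, each among the other's 3 nearest genes. TCEAL7 was 0.23 from PLA2G4A and 0.20 from PTGER4, and the list of 4 was completed by H4C8 for PLA2G4A (0.24) and by ARC for PTGER4 (0.26). Only 28 genes rose by at least 1, these among them, which limits how many could be near. The distance was not scaled, so it depends largely on the size of the rise. PLA2G4A and PTGER4 were chosen as large rises, so their closeness follows in large part from that choice and is no separate result.

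PLA2G4A and PTGS2 are next to each other among the measured genes of chromosome 1, at 1.94 and 0.04. Of the 6 nearest measured genes of PLA2G4A, 3 on each side and PTGS2 among them, 0 passed the threshold (limma, 0 also at an unadjusted p under 0.05), with differences of -0.0024 to 0.11. Around PTGER4 on chromosome 5, 2 of 6 rose: the adjacent DAB2, an endocytic adaptor, by 0.66 (limma adjusted p = 0.000118) and the ribosomal protein gene RPL37 by 0.42 (limma adjusted p = 0.00149). Both calls were lost when 1 probe set per gene was taken by its ID, where DAB2 read -0.13. Around HPGD on chromosome 4, FBXO8 fell by 0.20 (limma adjusted p = 0.0398), the other 5 did not pass, and the FBXO8 call was lost in each of the 6 fits without 1 array. PTGES on chromosome 9 (0.0036) lay between genes that rose: ASB6 by 0.50, PRRX2 by 0.42, TOR1B by 0.41 and TOR1A by 0.26 (limma adjusted p = 0.000637 to 0.017). TOR1A lost its call in 5 of 12 alternatives. On that chromosome 16% of genes were higher and 2.48% lower. Beside PTGER3, CTH, which makes cysteine from cystathionine, fell by 0.94 (limma adjusted p = 0.00202). Beside PTGER2, TXNDC16 fell by 0.29 (limma adjusted p = 0.0219, lost in 3 of 12 alternatives), and the adjacent receptor gene PTGDR read -0.04. Beside PTGES2, LCN2, the iron-carrier-binding lipocalin, rose by 0.30 (limma adjusted p = 0.0426, lost in 6 of 12). Over the 54 distinct neighbours that are not themselves among the 10 genes, 7 were higher and 3 lower, beside 8.28% and 7.35% of all genes. Of the 7, 4 were the neighbours of PTGES, and 6 of the 10 calls were lost under at least 1 alternative.

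**Figure D3:**
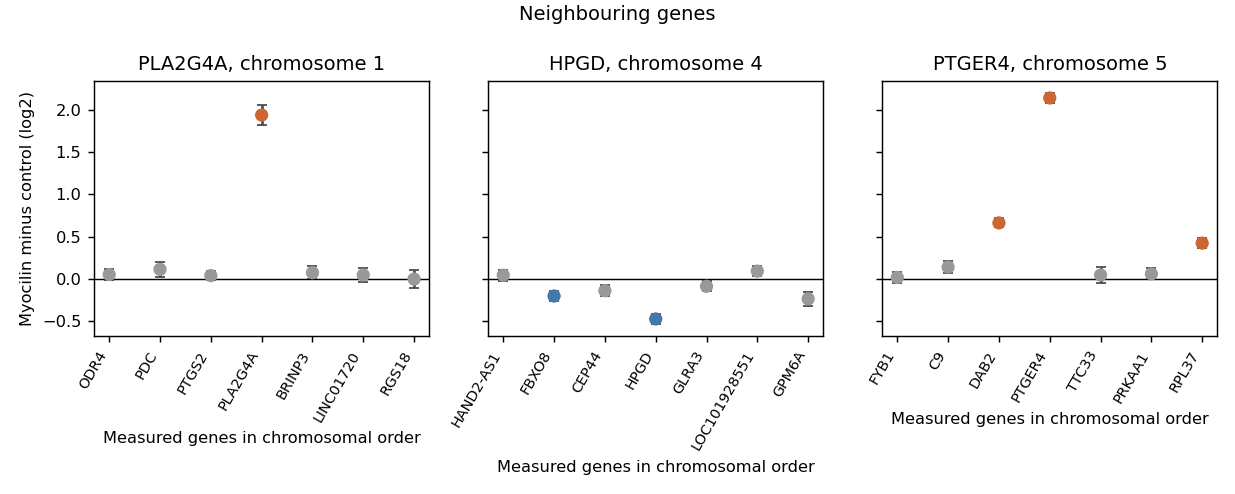
Log2 difference (myocilin minus control, vertical axis) of PLA2G4A, HPGD and PTGER4 and of the 3 nearest measured genes on each side, in chromosomal order along the horizontal axis; error bars are standard errors and grey points did not pass the threshold. PLA2G4A and PTGER4 stand above all neighbours shown, the next being DAB2 at 0.66.

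The wider pathway was read from 7 lists, with 136 of 149 listed genes measured. These lists were drawn up with earlier results of the same arrays known. The adjusted p-values of their genes therefore describe the contrast and are no independent test. Of the measured genes, 12 (8.82%) rose and 11 (8.09%) fell, beside 8.28% and 7.35% of all genes, and the median difference was 0.01. The count of falls was 3 without myocilin array 1, 4 without myocilin array 3, and 6 without control array 2 or control array 3. Of 24 other phospholipases A2 and arachidonate-handling genes, 1 rose and 0 fell (limma; 4 and 1 at an unadjusted p under 0.05), with a median of 0.08. The gene that rose was PLA2G7, the secreted enzyme that degrades platelet-activating factor, with 0.31, 0.10 and 0.28 against 0.57, 0.72 and 0.54, a rise of 0.37 with a standard error of 0.08 (limma adjusted p = 0.0113). PLA2G12A was next by p, at -0.17 (limma adjusted p = 0.077).

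Among 12 other prostanoid synthases and inactivating enzymes 1 rose and 2 fell, with a median of 0.07. PTGR1, a reductase that acts on the oxidised product of HPGD and on leukotriene B4, rose by 0.33 with a standard error of 0.06 (limma adjusted p = 0.00699), from 0.07, -0.03 and -0.05 to 0.28, 0.32 and 0.37. PTGR3, another 15-oxo-prostaglandin reductase, fell by 0.36 with a standard error of 0.06 (limma adjusted p = 0.00584), from 0.08, 0.16 and 0.11 to -0.18, -0.21 and -0.34. The call was lost with 1 probe set per gene by ID. PTGR3 lies on chromosome 18, where 48.2% of genes fell and the median difference was -0.21. PRXL2B fell by 0.24 (limma adjusted p = 0.0421), a call that 5 of 12 alternatives kept. Of the 10 other prostanoid receptors and transporters 0 passed (limma, 0 in either direction also at an unadjusted p under 0.05), and their median was 0.03. PTGER1, the calcium-coupled receptor EP1, differed by 0.13, the prostaglandin D2 receptors PTGDR and PTGDR2 by -0.04 and 0.15, and the prostacyclin receptor PTGIR by 0.01. The prostaglandin F receptor PTGFR differed by -0.15, its regulator PTGFRN by -0.04 and the thromboxane receptor TBXA2R by 0.06. The uptake carriers SLCO2A1 and SLCO3A1 differed by -0.06 and 0.12, and the exporter ABCC4 by 0.08.

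A further list held 16 genes linked to other products of arachidonic acid, 15 of the lipoxygenase and leukotriene branch and the epoxide hydrolase EPHX2. Of the 16, 1 rose and 2 fell, with a median of -0.01. Without EPHX2, 1 of the 15 rose and 1 fell, with a median of 0.03. ALOX5, which starts leukotriene synthesis, rose by 0.32 (limma adjusted p = 0.00663), from -0.23, -0.20 and -0.19 to 0.14, 0.15 and 0.04, and lost its call with 1 probe set per gene by ID. EPHX2, the soluble epoxide hydrolase, which acts on epoxides made by cytochrome P450 enzymes, fell by 0.36 (limma adjusted p = 0.0133), a call lost without myocilin array 1. LTA4H, the leukotriene A4 hydrolase, fell by 0.21 (limma adjusted p = 0.0439), a call lost in 6 of 11 alternatives.

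Downstream of the receptors, 3 of 35 genes of the cyclic AMP machinery rose and 4 fell, with a median of -0.02. CRTC2, a coactivator of CREB, rose by 0.42 (limma adjusted p = 0.00357) and the adenylyl cyclase ADCY9 by 0.33 (limma adjusted p = 0.00798). PKIG, an inhibitor of protein kinase A, fell by 0.45 (limma adjusted p = 0.00378), and the phosphodiesterase PDE3B by 0.31 (limma adjusted p = 0.0169, lost in 5 of 12 alternatives). These 4 genes act at different steps. Each separated the lines, which the smallest p of a list nearly requires, so nothing is read from it. Of the ADCY9 probe sets, 204498_s_at and 204497_at rose by 0.62 and 0.45, and 215400_x_at read -0.09. Only 214582_at of PDE3B passed by itself, at -0.46, with 208591_s_at at -0.22 and 222317_at at -0.25. The remaining 3 calls, named after their values were seen, were a rise of the arrestin gene ARRB1 by 0.21, kept in 4 of 12 alternatives, and falls of CREB1 by 0.23 and PDE8B by 0.29, kept in 8 and 9 of 12.

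Of 25 genes known to be induced by cyclic AMP or CREB, 3 rose and 1 fell, with a median of 0.0012. ARC, an immediate early gene, rose by 2.40 with a standard error of 0.12 (limma adjusted p = 1.11e-05), from -0.48, -0.92 and -0.38 to 1.81, 1.75 and 1.86. EGR1, an early growth response factor, rose by 0.56 (limma adjusted p = 0.017) and the phosphatase gene DUSP1 by 0.22 (limma adjusted p = 0.0353). EGR1 lost its call in 4 of 11 alternatives and DUSP1 in 5 of 11. The EGR1 probe sets 227404_s_at and 201694_s_at passed at 1.00 and 0.48, while 201693_s_at at 0.22 did not. Of the DUSP1 probe sets, 201041_s_at passed at 0.52, while 201044_x_at at 0.13 and 226578_s_at at 0.02 did not. PDE4B, a phosphodiesterase that breaks down cyclic AMP, fell by 0.44 (limma adjusted p = 0.00125), from 0.35, 0.34 and 0.35 to -0.09, -0.16 and -0.04. Its probe sets differed, at -0.79 for 203708_at, -0.52 for 211302_s_at and -0.02 for 215671_at, and the last did not pass. The list's other 21 genes did not pass.

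Among 14 regulators of cytosolic phospholipase A2 and COX-2 (the PTGS2 enzyme), 3 rose and 2 fell, with a median of -0.01. ANXA1, annexin A1, a calcium-binding protein known to restrain phospholipase A2, rose by 1.10 with a standard error of 0.06 (limma adjusted p = 2.32e-05), from -0.20, -0.25 and -0.37 to 0.77, 0.86 and 0.86. Its probe sets differed, at 2.06 for 201012_at and 0.14 for 233011_at, and the second did not pass. ZFP36, which promotes decay of AU-rich messages, rose by 0.33 (limma adjusted p = 0.0256, lost in 4 of 12 alternatives). The caveolin gene CAV1 fell by 0.25 (limma adjusted p = 0.0167, lost in 4 of 12), and TIA1, a translational silencer, by 0.27 (limma adjusted p = 0.0353, lost in 7 of 12). The remaining rise, named after its values were seen, was that of the HSP90 gene HSP90AB1, by 0.19 (limma adjusted p = 0.0479), a call kept in only 2 of 12 alternatives.

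**Figure D4:**
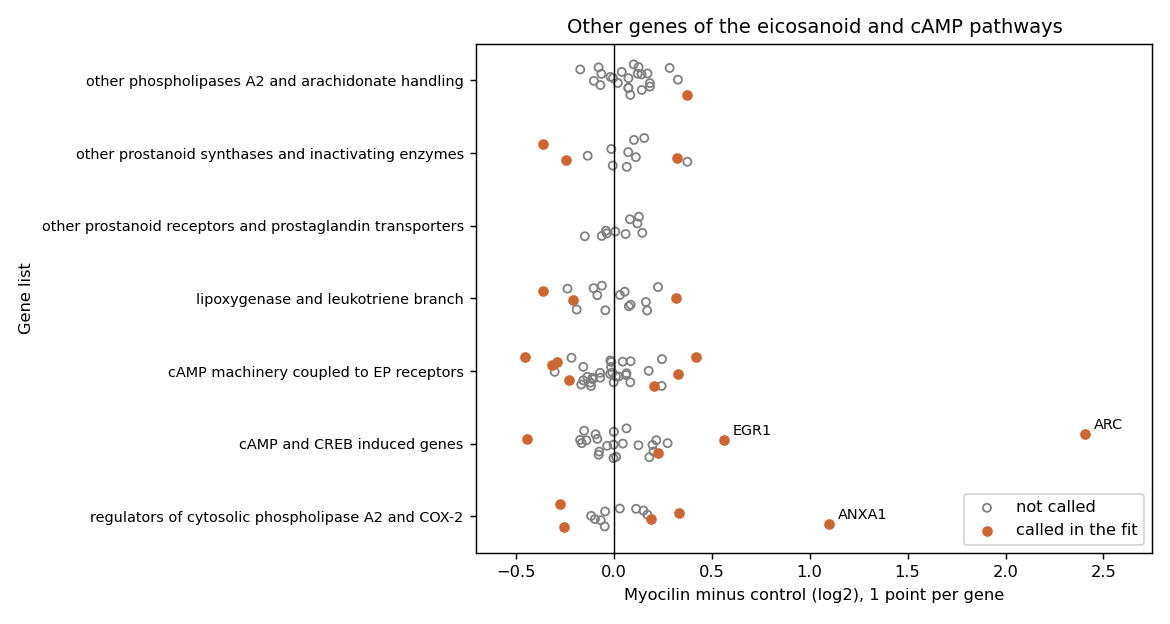
Log2 difference (myocilin minus control, horizontal axis) of every measured gene in the 7 pathway lists (rows), with vertical scatter for legibility; filled orange points passed the threshold in either direction and open grey points did not. Most points lie near 0, and ARC at 2.40 and ANXA1 at 1.10 are the points past an absolute difference of 1.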

How the data were processed

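Total RNA of 6 samples, 3 per line, was measured on HG-U133 Plus 2.0 arrays. The deposited values are log2 values that the authors centred per probe set; the base and centring were read from the values, and neither background correction, normalisation nor reference level is stated in the labels. Of 41751 probe sets, 37460 were annotated to 1 gene, 1728 to several and 2563 were unlisted; 37416 matched RefSeq. Probe sets of a gene were averaged over 18338 genes. Groups were compared with limma 3.58.1 (lmFit, eBayes; R 4.3.3) over all genes and separately over all probe sets, calling an adjusted p (Benjamini-Hochberg) under 0.05. The code was tested on simulated data. Tables used Python 3.11.15 and pandas 2.3.3.

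The 10 genes and all lists were chosen with earlier results of these data known. The text names all 10 genes, up to 4 called genes per list by p (the 2 smallest p where fewer than 2 passed), all other receptors and transporters, the 4 most alike genes, and called genes among 3 neighbours on each side. Alternatives were quantile normalisation, median centring, trend and robust eBayes, array weights, removal of _x_at and _s_at probe sets, 1 probe set per gene by ID, and each array left out. The number of arrays limits precision.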

Additional observations from a re-analysis of the deposited data

How the results depend on the processing

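PLA2G4A and PTGER4 stayed higher under all 12 alternatives, and HPGD stayed lower under the 11 that gave it a value. Median centring only repeated the main fit, since each array already had a median of 0. Every count of alternatives that kept a call includes it. The difference of PLA2G4A, with 1 probe set, could not change under the settings that select probe sets. Without _x_at and _s_at probe sets 0 of the 10 genes passed as lower, because HPGD then has no probe set; the same setting left 935 genes higher and 7 other pathway genes lower, with fewer probe sets tested. With 1 probe set per gene by ID, 6 other pathway genes were lower; the cause was not tested. Leaving out each array in turn gave 833 to 1125 genes higher and 780 to 1095 lower, 1092 to 1514 probe sets higher and 1189 to 1769 lower, and 3 to 10 other pathway genes lower, with fewer arrays in each fit. Of 118 values of the 10 genes' differences, 111 moved by less than 1 SD between replicates and 7 by more. All 7 came from probe set selection or quantile normalisation. Leaving out 1 of 3 arrays shifts a line mean by only part of that line's SD, so those values could hardly move by 1 SD. The 111 therefore say little about the choice of arrays. The 111 include values that could not move, those of median centring and of probe set selection in genes with 1 probe set. Trend and robust eBayes, which alters only the error estimates, could not move a difference either. Removal of _x_at and _s_at probe sets left PTGS2 unchanged, because it has none of these. No paired analysis was possible because the labels give the lines no shared replicate numbers. Centred values give no signal over background, so whether a gene that did not pass was detected cannot be read, and 3 arrays per line limit what a small difference can show.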
